A study of Mus musculus with 35 samples.

Results

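The regions described here are stretches of mouse autosomes that carried H3K27me3 in early female germ cells and no H3K27me3 peak in the late stages. They were chosen by measured values, namely the peak calls of 4 H3K27me3 lists. A 10 kb bin was taken when it was covered by peaks of the c7 and E18.5 lists and by none of the c34 and GV lists. 19066 of 240297 autosomal bins, or 7.93%, met this rule. They are called early-only bins below, span 190.66 Mb, and joined into 2850 regions when neighbouring bins were merged. Presence in c7 and E18.5 and absence in c34 and GV is therefore no finding. What follows concerns the other 9 peak lists, which the rule did not use, and the genes that lie in the regions.

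The 13 deposited peak lists come from CATCH-seq, a native chromatin immunoprecipitation for few cells in which micrococcal nuclease cuts the chromatin and carrier DNA limits losses. Oogonia-like cells (c7) and oocyte-like cells of an earlier (c13) and a later (c34) stage were derived from the H18 line of embryonic stem cells, which has Prdm1-mVenus and Dppa3-ECFP reporters, so these stages rest on 1 cell line. The E18.5 oocytes came from reporter mice with the same alleles and the germinal vesicle (GV) oocytes from BDF1 mice without them, and the labels give the genotype of all groups as WT. H3K27me3 was profiled in 1 library of GV oocytes and in 2 libraries of every other stage. H3K4me3 was likewise profiled in 1 library of GV oocytes, against 2 in c34, 2 at E18.5 and 4 in c13. H3K36me3 had 2 libraries at each stage where it was profiled. Each stage and mark has 1 peak list, so no replicate error could be given and no test was made. Ages beyond E18.5, treatments and the pooling of animals or cultures are not stated in the sources that were used. The spread shown with the values is that between the 19 autosomes, which is a spread along the genome and not between samples.

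H3K27me3 is laid down by Polycomb repressive complex 2 and lies over genes that are held silent, among them regulators of body plan and cell fate. H3K36me3 is deposited by SETD2 behind elongating RNA polymerase over transcribed gene bodies, and it hinders Polycomb repressive complex 2 from methylating the same histone tail. H3K4me3 marks promoters in most cells, and in growing oocytes it also spreads over broad domains away from promoters. In the growing oocyte, H3K36me3 guides the DNA methyltransferases that set maternal DNA methylation.

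Promoter sequences of 8 genes in the regions are shown because they stand for the states described below. They are RefSeq windows on GRCm38.p6 of 300 bases, from 250 before to 50 after an annotated start, written 5′ to 3′ on the strand of the gene. In the first set capitals mark each CG dinucleotide, which reads the same on both strands. Ptprn2 (chr12:116485470-116485769, plus strand) is the first gene with an entry for H3K36me3 in both late stages, Entpd1 (chr19:40612116-40612415, plus strand) for H3K4me3 in both, Catsperb (chr12:101404423-101404722, plus strand) for neither mark in most of its body, and Caln1 (chr5:130369208-130369507, plus strand) for the longest region. Catsperb was chosen by bins in its body, and the 10 kb around its start was 100% under H3K4me3 in GV. The Caln1 window lies outside that region, which holds 89.4% of the gene.
Ptprn2: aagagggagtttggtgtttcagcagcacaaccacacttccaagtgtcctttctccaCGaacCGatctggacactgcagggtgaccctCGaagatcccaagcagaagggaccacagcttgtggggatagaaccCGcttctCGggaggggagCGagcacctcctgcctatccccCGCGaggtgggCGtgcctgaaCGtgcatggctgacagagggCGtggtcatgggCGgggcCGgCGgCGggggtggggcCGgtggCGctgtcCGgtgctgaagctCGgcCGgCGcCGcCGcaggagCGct
Entpd1: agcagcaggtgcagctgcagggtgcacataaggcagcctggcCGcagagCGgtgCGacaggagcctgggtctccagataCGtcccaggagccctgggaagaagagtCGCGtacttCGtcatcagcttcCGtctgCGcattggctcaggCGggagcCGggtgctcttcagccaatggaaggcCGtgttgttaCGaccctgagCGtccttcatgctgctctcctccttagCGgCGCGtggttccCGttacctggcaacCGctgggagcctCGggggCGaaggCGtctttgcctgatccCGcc
Catsperb: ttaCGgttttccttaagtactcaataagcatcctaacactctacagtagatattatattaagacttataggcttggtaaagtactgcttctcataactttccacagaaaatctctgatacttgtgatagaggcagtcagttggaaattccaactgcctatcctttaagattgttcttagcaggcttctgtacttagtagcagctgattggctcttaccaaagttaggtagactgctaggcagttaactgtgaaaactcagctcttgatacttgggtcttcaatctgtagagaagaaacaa
Caln1: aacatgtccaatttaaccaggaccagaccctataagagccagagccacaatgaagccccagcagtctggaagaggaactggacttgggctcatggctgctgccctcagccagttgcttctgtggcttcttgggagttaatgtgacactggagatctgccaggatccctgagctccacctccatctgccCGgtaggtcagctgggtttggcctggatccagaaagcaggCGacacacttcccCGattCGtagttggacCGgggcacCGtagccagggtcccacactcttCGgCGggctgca
The window of Ptprn2 held 24 CG, that of Entpd1 23, that of Caln1 8 and that of Catsperb 1. CG occurred in 95% of the 16456 autosomal promoter windows of protein-coding genes.

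In the second set capitals mark CANNTG, the E-box, a pattern that includes the sites of basic helix-loop-helix factors such as FIGLA and that reads as CANNTG on both strands. These 4 genes act in oocytes and were chosen after their values were seen. Oosp1 (chr19:11691002-11691301, minus strand) encodes an oocyte-secreted protein, Zar1 (chr5:72581035-72581334, minus strand) an RNA-binding maternal factor, and Nobox (chr6:43309505-43309804, minus strand) and Lhx8 (chr3:154330511-154330810, minus strand) homeobox transcription factors of the early follicle.
Oosp1: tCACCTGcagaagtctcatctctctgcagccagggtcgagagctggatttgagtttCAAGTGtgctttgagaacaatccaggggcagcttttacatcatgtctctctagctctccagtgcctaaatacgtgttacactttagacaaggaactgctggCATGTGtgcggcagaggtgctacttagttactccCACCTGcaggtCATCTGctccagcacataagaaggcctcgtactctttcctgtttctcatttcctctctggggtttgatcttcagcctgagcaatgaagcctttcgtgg
Zar1: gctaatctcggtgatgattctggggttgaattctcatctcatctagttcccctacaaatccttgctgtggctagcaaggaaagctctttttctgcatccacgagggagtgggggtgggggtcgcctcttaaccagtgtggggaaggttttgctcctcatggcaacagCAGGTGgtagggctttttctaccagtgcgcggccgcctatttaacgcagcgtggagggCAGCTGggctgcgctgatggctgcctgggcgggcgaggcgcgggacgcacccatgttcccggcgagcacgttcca
Nobox: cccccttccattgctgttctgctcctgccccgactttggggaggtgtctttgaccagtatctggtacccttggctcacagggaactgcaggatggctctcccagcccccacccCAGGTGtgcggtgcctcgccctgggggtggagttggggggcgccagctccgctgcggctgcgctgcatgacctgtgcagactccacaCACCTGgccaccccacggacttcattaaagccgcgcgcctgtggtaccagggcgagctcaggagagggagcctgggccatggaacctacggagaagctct
Lhx8: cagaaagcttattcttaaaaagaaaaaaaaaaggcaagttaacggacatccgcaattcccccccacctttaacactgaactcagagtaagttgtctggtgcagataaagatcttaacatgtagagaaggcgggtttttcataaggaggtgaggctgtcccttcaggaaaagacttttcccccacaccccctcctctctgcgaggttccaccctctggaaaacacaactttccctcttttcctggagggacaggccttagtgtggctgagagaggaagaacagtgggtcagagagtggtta
The window of Oosp1 held 5 matches, those of Zar1 and Nobox 2 each and that of Lhx8 0. A match was found in 68.4% of all 16456 windows and in 71.3% of the 1262 windows of genes in the regions, so the pattern was about as common in the regions as elsewhere, and a match is only a description of the letters.

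Of 60771 autosomal bins with H3K27me3 in both c7 and E18.5, 31.4% were early-only. A further 25292 bins (41.6%) had H3K27me3 in c34 and GV too, and these serve as the main comparison under the name kept bins. 14808 bins (24.4%) were covered in c34 and not in GV, and 1605 (2.64%) in GV and not in c34. The H3K27me3 lists covered 36% of the autosomes in c7, 40.6% at E18.5, 43.4% in c13, 37.8% in the c34 cells and 29.0% in the GV oocytes. The GV list was the shortest and came from 1 library. Read depth is unknown, and the part of depth or of the peak threshold in the absence of a call was not tested. Peak lists hold no expression values, so the labelled cell types could not be checked against marker RNA. Over the whole oocyte list, H3K36me3 lay over at least 50% of the body in 34 of 37 genes in c34 and 31 in GV (61.6% and 59.3% of all genes), and in 14 in c13 and 9 at E18.5 (69.0% and 20.2% of all genes). Late counts were also high in housekeeping genes, 17 of 20 in c34 and 16 in GV, so these counts do not check cell identity.

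The regions were mostly short and scattered. Their median length was 50 kb, with quartiles of 20 and 90 kb, and 456 regions (16.0%) were a single bin. The 617 regions of 100 kb or more held 102.8 Mb, 53.9% of the length. 570 regions (20.0%) touched a late H3K27me3 peak on both sides, 1473 (51.7%) on one side and 807 (28.3%) on neither, so most regions lay at the edge of a domain that was still called in c34 or GV. Every autosome held some: early-only bins numbered 613 on chromosome 3, a median of 974, and 1678 on chromosome 8. As a share of each chromosome they ranged from 3.91% on chromosome 3 to 15.4% on chromosome 19. The share of early H3K27me3 bins that were early-only varied less, from 24.0% on chromosome 11 to 37.8% on chromosome 13.

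In c34 cells and GV oocytes the early-only bins were H3K36me3-rich. H3K36me3 covered 56.7% of them in c34 (lowest chromosome 42.6%, median 54.7%, highest 77.4%) against 37.4% of all autosomal bins. In GV it covered 58.9% (40.9%, 57.2% and 71.1%) against 39.4% of all bins. Kept bins had 16.4% in c34 (chromosomes 8.03% to 22.8%) and 16.7% in GV (9.04% to 26.8%). The chromosome ranges of early-only and kept bins did not overlap at either stage, and early-only bins were higher on 19 of 19 chromosomes, by a ratio of 3.45 in c34 and 3.52 in GV.

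The earlier stages showed another order. In c13 H3K36me3 covered 49.5% of early-only bins, 70.3% of kept bins and 46.1% of all bins, and early-only bins were higher than kept bins on 1 of 19 chromosomes. At E18.5 the values were 30.1%, 19.2% and 24.4%, with early-only bins higher on 14 of 19 chromosomes. In c13, then, kept bins had more H3K36me3 than early-only bins, and in c34 and GV they had far less.

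Bins with no H3K27me3 in c7, E18.5, c34 or GV, 85872 in number, were close to early-only bins in late H3K36me3, at 51.7% in c34 and 52.7% in GV. Early-only bins were higher on 11 of 19 chromosomes in c34 and 12 of 19 in GV. The sets differed in gene content. A bin is called genic here when protein-coding genes cover at least 50% of it, which held for 37.8% of early-only bins, 38.6% of kept bins and 51.8% of bins without H3K27me3. Among genic bins, H3K36me3 in GV covered 77.9% of early-only bins and 78.1% of bins without H3K27me3, a difference smaller than the spread between chromosomes. Among the other bins it covered 47.4% of early-only bins and 25.4% of those without H3K27me3, higher on 19 of 19 chromosomes. In c34 the values were 43.9% and 22.9%, also higher on 19 of 19. This excess was not confined to the late stages. In the same bins H3K36me3 covered 40.4% against 17.0% in c13, higher on 18 of 19 chromosomes. At E18.5 it covered 33.1% against 22.1%, higher on 19 of 19.

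**Figure D1:**
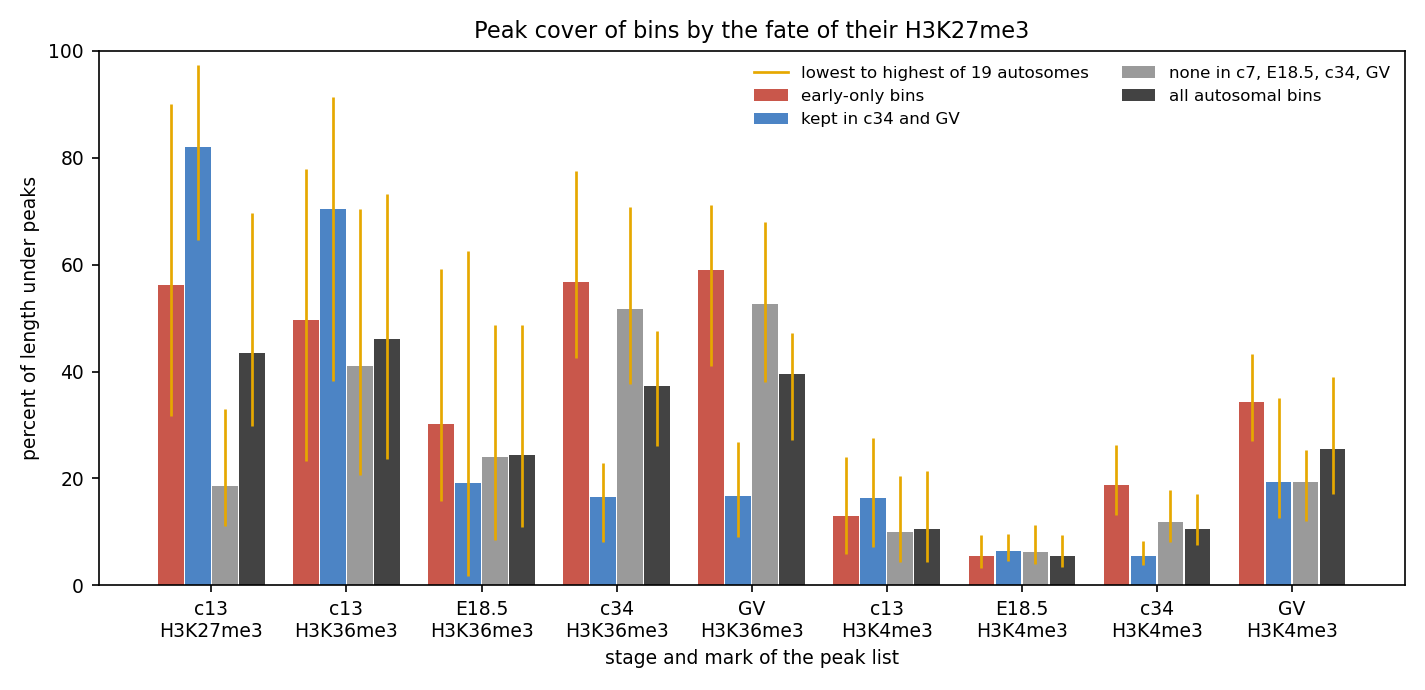
Percent of the length of 10 kb bins under peaks (vertical axis) for 9 peak lists, in early-only bins, bins kept in c34 and GV, bins without H3K27me3 at 4 stages, and all autosomal bins. Bars are values over all bins of a set and yellow lines run from the lowest to the highest of 19 autosomes; H3K36me3 in c34 and GV is 56.7% and 58.9% in early-only bins and 16.4% and 16.7% in kept bins.

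H3K4me3 was also more extensive in the early-only bins of the late stages. In c34 it covered 18.9% of their length (lowest chromosome 13.1%, median 17.7%, highest 26.2%) against 10.5% of all bins and 5.47% of kept bins. In GV it covered 34.2% (27%, 34.4% and 43.4%) against 25.5% of all bins and 19.4% of kept bins. Early-only bins exceeded kept bins on 19 of 19 chromosomes at both stages, though in GV the ranges over chromosomes overlapped, since kept bins reached 35.1% on one chromosome. In c13 and at E18.5 there was no excess over kept bins: early-only bins had 12.9% and 5.53%, kept bins 16.4% and 6.37%, and all bins 10.5% and 5.48%.

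The GV value depended on gene content. Genic early-only bins had 24.4% H3K4me3 in GV and genic kept bins 22.4%, higher on 14 of 19 chromosomes. Non-genic early-only bins had 40.2% against 17.5%, higher on 19 of 19. In c34 the genic and non-genic early-only bins were alike, at 20.4% and 17.9%, and exceeded the kept bins (7.44% and 4.23%) on 19 of 19 chromosomes in each class. Bins where H3K27me3 was kept in c34 and absent in GV had the most GV H3K4me3, 57.3%, against 16.1% in c34. Early-only bins were below them in GV on 19 of 19 chromosomes (0 of 19 higher).

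Each bin was next given a state from both marks, with H3K4me3 counted when it covered at least 5 kb of the bin. In c34, 43.9% of early-only bins had H3K36me3 alone, 12.7% both marks, 6.11% H3K4me3 alone and 37.2% neither. In GV the values were 46.2%, 12.7%, 23.4% and 17.6%. The main difference between the stages was thus in bins with H3K4me3 alone and bins with neither mark. All autosomal bins shifted alike, from 3.91% in c34 to 19.2% in GV with H3K4me3 alone and from 58.7% to 41.4% with neither. This difference between the stages is therefore no trait of the early-only bins. Of kept bins, 80.3% had neither mark in c34 and 67.2% in GV.

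Bin by bin, c34 and GV had the same state in 12114 early-only bins (63.5%), in 72.8% of kept bins and in 74.2% of bins without H3K27me3. H3K36me3 was present in both stages in 9707 early-only bins (50.9%), in c34 alone in 1100 (5.77%), in GV alone in 1526 (8.00%) and in neither in 6733 (35.3%). For all autosomal bins these shares were 31.9%, 5.45%, 7.52% and 55.1%, so H3K36me3 at a single late stage was near the background. Bins without H3K27me3 had H3K36me3 in both stages in 46.7% of cases, close to early-only bins. The most frequent mismatch was neither mark in c34 and H3K4me3 in GV, with 2833 bins (14.9%, near the 14.0% of all autosomal bins). Neither mark at both stages was found in 2968 bins (15.6%, against 37.8% of all bins). Of the H3K4me3-covered length of c34 in these bins, 75.8% was covered in GV too, and of that of GV 41.7% in c34. Most c34 H3K4me3 thus lay within the wider GV cover. The same shares over all autosomal bins were 75.6% and 31.2%, so the first is no trait of the early-only bins.

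**Figure D2:**
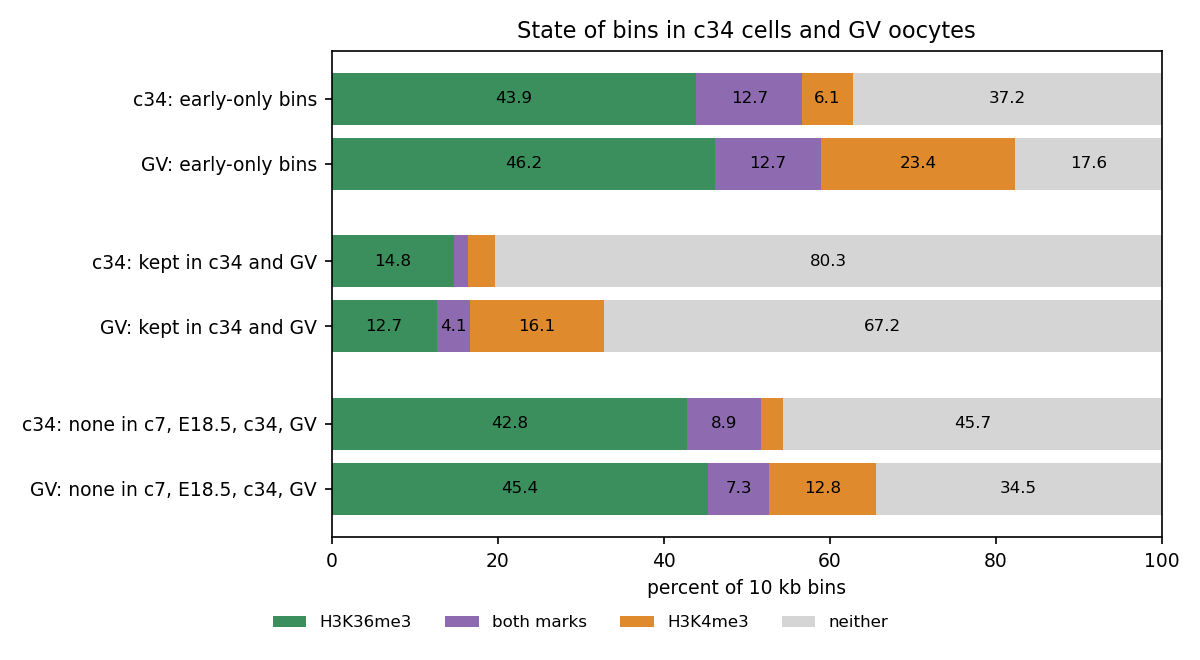
Share of 10 kb bins (horizontal axis, percent) with H3K36me3 alone, both marks, H3K4me3 over at least 5 kb alone, or neither, in c34 cells and GV oocytes for 3 sets of bins. Early-only bins have neither mark in 37.2% (c34) and 17.6% (GV) of cases, and kept bins in 80.3% and 67.2%.

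The c13 list was not part of the rule and divides the early-only bins. H3K27me3 was called in c13 in 10729 of them, 56.3%, against 43.4% of all bins and 82.0% of kept bins. On single chromosomes the value ran from 31.6% to 90.1%. Early-only bins were below kept bins on 19 of 19 chromosomes (0 of 19 higher).

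The c13-positive and c13-negative bins were different in kind. Of the c13-positive bins 48.2% were genic, and H3K36me3 covered 76.3% of them in c13, 76.2% in c34 and 75.3% in GV. Of the 8337 c13-negative bins 24.4% were genic, and H3K36me3 covered 15.1% in c13, 31.6% in c34 and 37.9% in GV. In c34, H3K4me3 covered 26.4% of c13-positive and 9.10% of c13-negative bins. In GV the values were closer, 36.4% and 31.4%. At E18.5 the order of H3K36me3 was turned, with 24.4% in c13-positive and 37.5% in c13-negative bins. In the c13 lists H3K27me3 and H3K36me3 were thus called over the same 10 kb bins in many places. The c13 peaks were wide: peaks of 1 Mb or more held 79.8% of the autosomal H3K36me3 length in c13 and 34.4% at E18.5, but 4.77% in the c34 list and 4.80% in the GV list. For H3K27me3 they held 36.8% in c13, 9.16% in c34 and 8.64% in GV. The part of peak width in this overlap and in the c13 values above was not tested. Whether the marks shared nucleosomes or cells cannot be read from peak lists.

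The longest region lay at chr5:130420001-131310000 on GRCm38 (890 kb) over Caln1, which encodes a neuronal calcium-binding protein, and Galnt17, a glycosyltransferase gene. H3K27me3 covered 100% of it in c13 although c34 and GV had none. H3K36me3 covered 100% in c13, 0% at E18.5, 95.5% in the c34 list and 98.9% in GV, and H3K4me3 2.02%, 3.37%, 14.2% and 11.3%. Both late stages thus had nearly unbroken H3K36me3, as c13 had, while the E18.5 list had no H3K36me3 peak there.

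The next region, chr12:116480001-117070000 (590 kb), lay within Ptprn2, a receptor-type phosphatase gene of secretory vesicles. Its H3K36me3 cover was 100% in c13, 93.2% at E18.5, 86.4% in the c34 list and 81.4% in GV. The region at chr17:62570001-63090000 (520 kb) over Efna5, an ephrin ligand gene, and Fbxl17 had 28.8%, 53.8%, 94.2% and 82.7%. It also had the highest H3K4me3 of the 10 longest regions in both late stages, 39.6% in c34 and 48.3% in GV. Dlgap2, a postsynaptic scaffold gene, and Erich1 overlapped the region at chr8:14090001-14590000 (500 kb), which had 100% H3K36me3 at all 4 stages.

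Gpc5, a glypican gene, was a contrast: its region at chr14:115150001-115610000 (460 kb) had no H3K27me3 in c13, 0% H3K36me3 in c13 and 6.52% at E18.5, but 82.6% in c34 and 89.1% in GV. Tmem132d at chr5:127940001-128360000 (420 kb) had 0% H3K27me3 in c13 and 100% H3K36me3 in c13, c34 and GV. The least covered of the 10 was chr17:15780001-16240000 (460 kb) around Rgmb, a co-receptor gene for bone morphogenetic proteins, with H3K36me3 of 45.7% in c34 and 58.7% in GV. It had no late H3K27me3 on either side, and H3K4me3 of 15.0% in c34 and 42.2% in GV. The regions over Fam155a (470 kb), Ptprm (420 kb), a cell adhesion phosphatase gene, and Mphosph6 with Cdh13 (420 kb) had H3K36me3 from 63.8% to 100% in c34 and from 76.6% to 100% in GV.

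**Figure D3:**
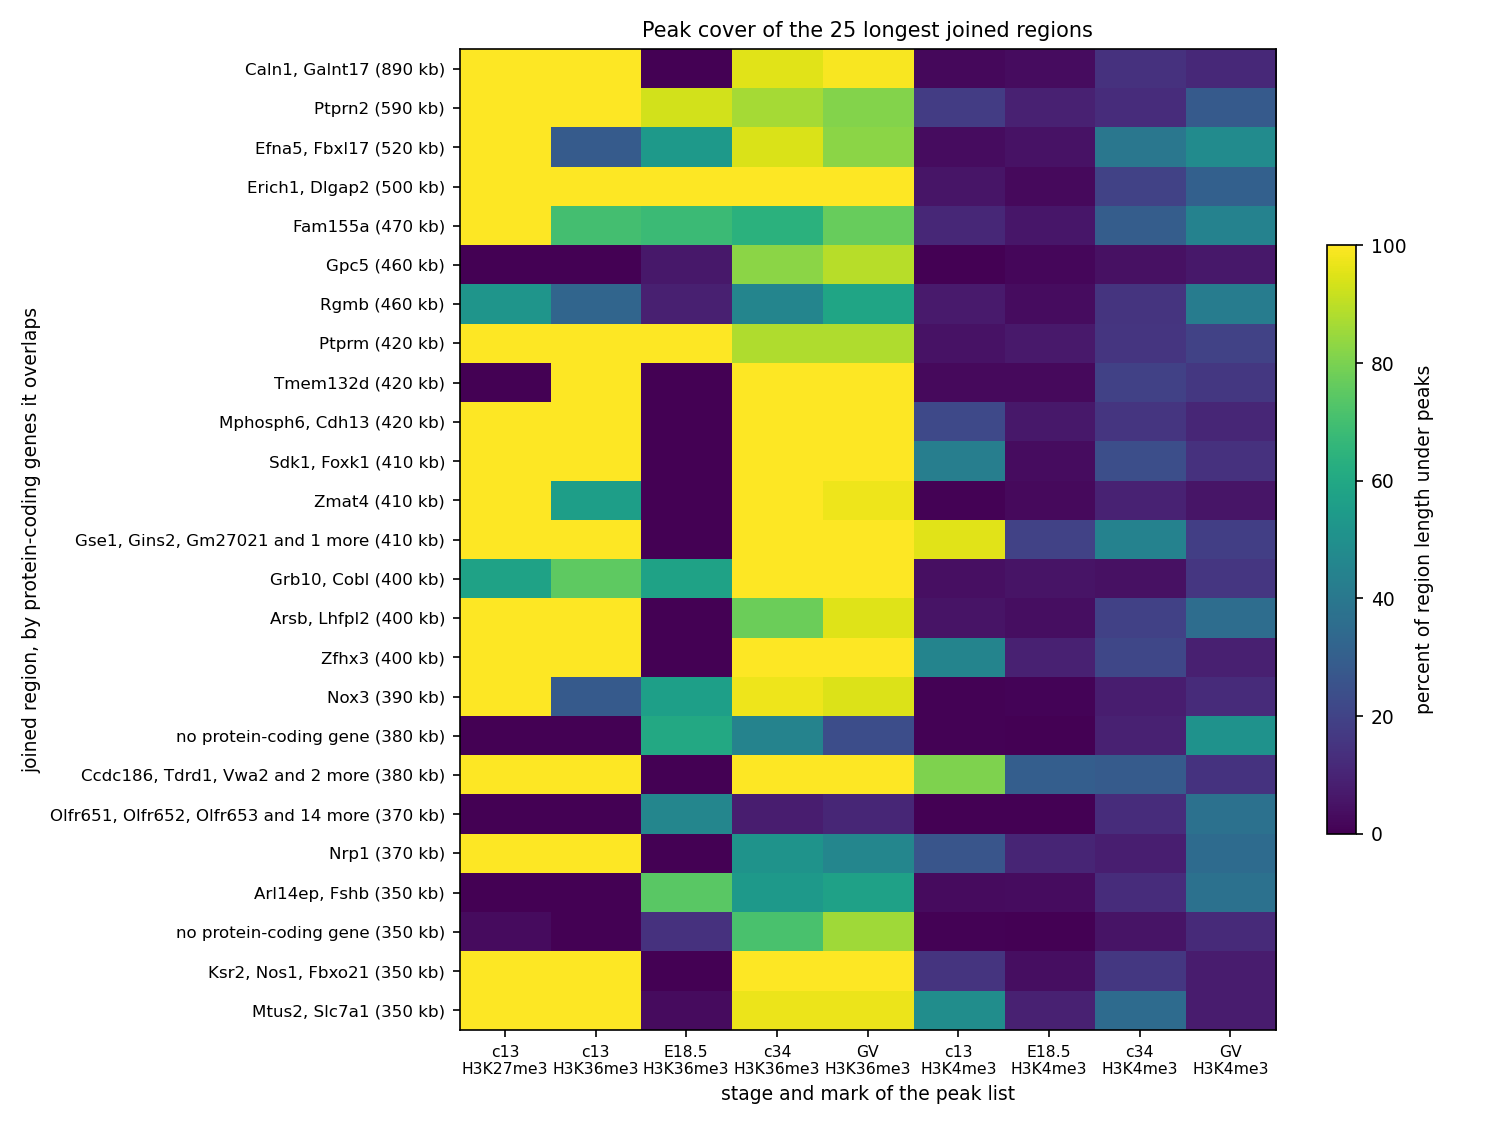
Percent of length under peaks (colour, 0 to 100) of the 25 longest joined regions, in rows by the protein-coding genes they overlap, for 9 peak lists in columns. Most rows are near 100 for H3K36me3 in c34 and GV, as in the region of Caln1 and Galnt17 (95.5% and 98.9%), while the region of olfactory receptor genes from Olfr651 has 8.11% and 10.8%.

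Among all 617 regions of 100 kb or more, H3K36me3 covered at least 50% of the length in 387 (62.7%) in c34 and 398 (64.5%) in GV, and in 355 (57.5%) at both stages. 82 had none at either stage. H3K4me3 covered at least 50% in 14 (2.27%) in c34 and 112 (18.2%) in GV. H3K27me3 in c13 covered at least 50% in 329 (53.3%), and 237 had none in c13. No such region counts are given for other sets of bins, so these counts have no direct background. As cover of length, H3K36me3 in c34 and GV took 37.4% and 39.4% of all autosomal bins. It took 51.7% and 52.7% of bins without H3K27me3 in c7, E18.5, c34 or GV. H3K4me3 took 10.5% and 25.5% of all autosomal bins, and c13 H3K27me3 43.4%.

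Protein-coding genes overlapped 1534 of the 2850 regions, and 1316 regions had none. Of 20661 autosomal protein-coding genes, 1579 had at least 50% of the annotated body in early-only bins, or 7.64%, close to the share of the genome that the bins take. 1175 of them (74.4%) lay there entirely. They were shorter than all genes, with a median of 12.0 kb against 17.5 kb, and their promoter windows held fewer CG, with a median of 9 (quartiles 2 and 21) against 14 (4 and 25).

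At the bodies of these 1579 genes, H3K36me3 covered at least 50% in 1159 (73.4%, against 61.6% of all genes) in c34 and in 1102 (69.8% against 59.3%) in GV. In c13 the count was 1089 (69.0% against 69.0%) and at E18.5 366 (23.2% against 20.2%). The excess over all genes was thus found in the late stages and was small or nil in the earlier ones. All genes include those under late H3K27me3, which the rule leaves out of early-only bins. Genic early-only bins had no late excess over genic bins without H3K27me3 in c7, E18.5, c34 or GV. H3K36me3 covered 77.7% against 78.6% in c34 and 77.9% against 78.1% in GV, higher on 7 of 19 chromosomes at each stage. Both late stages called the body in 1039 genes (65.8%), c34 alone in 120, GV alone in 63, and neither in 357 (22.6%). These joint counts have no share of all genes beside them and are not read as a trait of the 1579 genes.

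For H3K4me3, a promoter was called when a peak touched its window by at least 1 bp. Of 1262 genes with a window, 776 (61.5% against 69.7% of all genes) were called in c13, 620 (49.1% against 59.5%) at E18.5, 789 (62.5% against 63.8%) in c34 and 903 (71.6% against 71.0%) in GV. These genes were below the background in c13 and at E18.5 and near it in c34 and GV. Both late stages called 748 (59.3%), c34 alone 41, GV alone 155 and neither 318. 594 genes (47.1%) had promoter H3K4me3 and body H3K36me3 in both. No share of all genes is given for these joint counts, so they are not read as a trait of these genes. Promoters with H3K4me3 were CG-rich compared with those without: the median was 17 against 2 in c34 and 15 against 2 in GV.

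Oocyte genes made up the list with the most members in the regions. Of 37 autosomal genes of oocyte growth and maternal factors, 13 (35.1%) had at least 50% of the body in early-only bins, in 11 regions, against 7.64% of all genes. None of the 37 lay in kept bins, where 11.4% of all genes lay, and Obox6 and Btg4 lay in bins kept in c34 only, where 6.27% of all genes lay. H3K36me3 covered at least 50% of the body in 13 of the 13 in c34 and 11 in GV, the exceptions in GV being Gdf9 and Npm2, and H3K27me3 covered the body in c13 in 10. The late H3K36me3 counts are no trait of these 13, since the whole list had 34 of 37 and 31 of 37. All 6 genes with a promoter window had H3K4me3 there in c34 and in GV, and 2 had it in c13 and 2 at E18.5. Of all genes with a window, 63.8% had it in c34, 71.0% in GV, 69.7% in c13 and 59.5% at E18.5. Only 6 of the 13 genes had a window, and promoter counts of the whole list are not given. Whether this H3K4me3 is a trait of the 13 was not tested.

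Gdf9, the oocyte growth factor that acts on granulosa cells, had body H3K36me3 of 100% in c13, 0% at E18.5, 100% in the c34 list and 0% in GV. Its body H3K4me3 was 100%, 17.2%, 100% and 100%. The late lists therefore differed in H3K36me3 at Gdf9 and not in H3K4me3. Gdf9 lies within a single 10 kb bin, so its H3K36me3 values rest on the call of that bin in each list. Npm2, the oocyte nucleoplasmin, had H3K36me3 of 100% in c13, at E18.5 and in c34 and 0% in GV, with H3K4me3 of 13.8%, 6.89%, 48.3% and 62.0%.

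The oocyte list holds 10 genes of the maternal-effect NLRP family, and 3 of them, on chromosome 7, lay in early-only bins. None of the 10 had H3K27me3 over the body in c13. Nlrp14 had H3K36me3 of 0% in c13 and at E18.5, 68.6% in the c34 list and 80.5% in GV. Nlrp2 had 0%, 0%, 100% and 100%. Nlrp9a had 0%, 12.7%, 89.4% and 100%, so all 3 were covered in both late stages and hardly at all before. None of the 3 had H3K4me3 over the body in c13 or at E18.5, and in c34 and GV it covered 10.2% to 27.2% and 7.61% to 16.5%.

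Oosp1 had H3K36me3 of 0% in c13, 53.2% at E18.5 and 100% in c34 and GV. H3K4me3 in the 10 kb around its start was 0% in c13 and at E18.5, 90.5% in the c34 list and 60.5% in GV. Oosp2, its neighbour on chromosome 19, had H3K36me3 of 0%, 79.5%, 100% and 100%. The third member of the cluster, Oosp3, had 12.6%, 0%, 100% and 100%, and all 3 genes had H3K27me3 over the whole body in c7, c13 and E18.5. Oas1d, an oocyte member of the oligoadenylate synthetase family, had H3K36me3 of 100%, 0%, 100% and 100%, and no H3K4me3 over the body in c13 or at E18.5 against 32.0% in c34 and GV.

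The other 4 oocyte genes included the zona pellucida genes Zp1 and Zp2, which encode egg coat proteins. Both had H3K36me3 of 100% in c13, c34 and GV and 0% at E18.5. Zp1 had H3K4me3 of 100% in c13, 0% at E18.5, 100% in the c34 list and 41.2% in GV. Tle6, a subunit of the subcortical maternal complex, matched them in H3K36me3. Zar1 had H3K36me3 of 0% in c13 and 100% at the other 3 stages, and H3K4me3 around its start of 60.8%, 30.0%, 100% and 90.8%.

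Of 8 oocyte transcription factor genes, 3 (37.5%) lay in early-only bins and none in kept bins. Lhx8 had H3K36me3 of 100% at all 4 stages. Nobox, whose body had no H3K27me3 in c13, had 0% in c13 and 100% at the 3 other stages. Around the Nobox start H3K4me3 was 40.0% in c13, 75.5% at E18.5, 100% in the c34 list and 90.0% in GV. Tbpl2, the oocyte TATA-binding protein paralogue, had H3K36me3 of 0% in c13 and at E18.5, 100% in the c34 list and 73.9% in GV, and its promoter window was called for H3K4me3 only in c34 and GV.

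**Figure D4:**
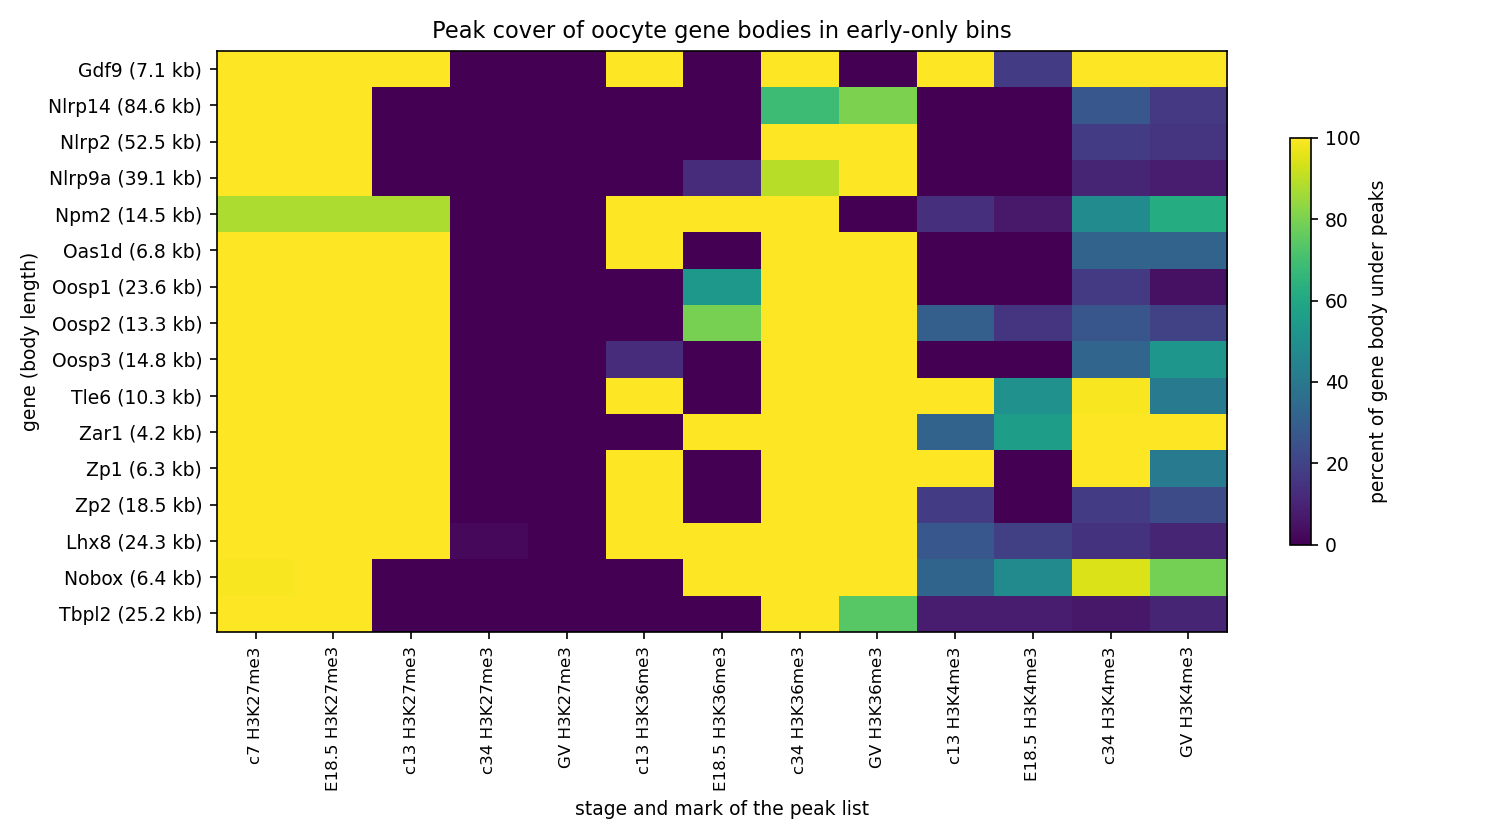
Percent of gene body under peaks (colour, 0 to 100) for the 16 oocyte genes with at least 50% of the body in early-only bins, in rows with their length, for 13 peak lists in columns. H3K27me3 in c7, E18.5, c34 and GV was used to choose the bins; H3K36me3 in c34 covers 68.6% to 100% of every gene, and in GV Gdf9 and Npm2 have 0%.

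Genes of the germline and piRNA pathway, which silences transposons, had 5 of 20 (25%) in early-only bins, and Tdrd6 in kept bins. Gtsf1, Henmt1, Piwil1, Tdrd1 and Tdrd9 had H3K36me3 over 98.4% to 100% of the body in c34 and in GV. All 5 had H3K27me3 over 100% of the body in c13. Neither trait was particular to these 5. H3K36me3 lay over at least 50% of the body in 17 of the 20 genes in c34 and 15 in GV (61.6% and 59.3% of all genes). Outside early-only bins, c13 H3K27me3 covered 100% of Ddx4, Dazl, Mael, Piwil2 and Piwil4, but 0% of Tdrd5, Pld6, Rnf17 and Tdrd12. Piwil1, a PIWI protein gene, had promoter H3K4me3 in c13, E18.5 and c34 and not in GV. Of the 10 kb around its start, 62.4%, 50%, 57.6% and 0% was covered. Tdrd1 had 100% there at all 4 stages. Of 28 meiosis genes 3 (10.7%) lay in early-only bins, near the 7.64% of all genes, and 3 others (Spata22, Mei1 and Syce3) in kept bins. Meiob, a meiotic recombination gene, had H3K36me3 of 100% in c13 and 0% at the 3 other stages, Meioc, which sustains meiotic prophase, had 100%, 0%, 100% and 0%, and Rad21l, a meiotic cohesin gene, 100%, 0%, 59.5% and 59.5%.

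Chromatin and DNA methylation enzymes had 6 of 27 genes (22.2%) in early-only bins and none in kept bins. They were Dnmt3l, the cofactor of de novo methylation in oocytes, Ehmt2 and Ring1, which encode a histone methyltransferase and a Polycomb subunit, Kdm6b, an H3K27 demethylase gene, and Tet3 and Uhrf1, which act in DNA demethylation and its maintenance counterpart. All 6 had H3K36me3 over 100% of the body in c13, c34 and GV and over 0% at E18.5. Late H3K36me3 was as common in the whole list, at 26 of 27 genes in c34 and 25 in GV, against 61.6% and 59.3% of all genes. H3K4me3 around the Dnmt3l start was 20.0% in c13, 0% at E18.5, 60.0% in the c34 list and 50% in GV. Around the Tet3 start it was 73.2%, 50%, 100% and 0%.

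Of 15 imprinted genes with maternal germline methylation, 4 (26.7%) lay in early-only bins: Gnas, Grb10, Nnat and Peg10. H3K36me3 covered 100% of Gnas, Grb10 and Nnat in both late stages and 96.1% of Peg10 in both. In c13 it covered 100% of the first 3 and 0% of Peg10, and at E18.5 0% of all 4. Late body H3K36me3 is no trait of these 4. In the whole list it was called in 14 of 15 genes in c34 and 13 in GV. The shares of all genes were 61.6% and 59.3%. The promoter window of Nnat had H3K4me3 in 3 lists and not in GV. Of the 10 kb around its start, 100% was covered in c13, 60.8% at E18.5, 70.8% in the c34 list and 0.77% in GV. Of 16 genes known for H3K27me3-dependent imprinting none lay in early-only bins and 5 lay in kept bins, against 11.4% of all genes.

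Developmental regulators were placed otherwise. 1 of 36 (2.78%) lay in early-only bins, 19 in kept bins and 9 in bins kept in c34 only. The 1 was Gata4, a heart and gonad transcription factor gene, of which 56.4% lay in early-only bins and 43.6% was still under H3K27me3 in c34 and GV. H3K36me3 covered 70.2% of Gata4 in both late stages. No pluripotency and early germ cell gene (of 18) and no housekeeping gene (of 20) lay in early-only bins, and none of them overlapped one.

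Ovarian somatic and blood genes lay in early-only bins at shares near the 7.64% of all genes, unlike oocyte growth and maternal genes (35.1%). Each of these 2 lists had 2 genes there. Of 21 ovarian somatic genes, Inhba and Kitl (9.52%) were in early-only bins, and 10 (47.6%) in kept bins, against 11.4% of all genes. In the whole ovarian list body H3K36me3 was called in 8 genes in c34 and 10 in GV. The shares of all genes were 61.6% and 59.3%. Inhba, an activin subunit gene, had no H3K36me3 at any of 4 stages, and H3K4me3 around its start of 58.5% in c13 and at E18.5, 68.5% in the c34 list and 100% in GV. Kitl, the KIT ligand gene, had H3K36me3 of 59.5% in GV and 0% elsewhere. Of 19 blood and immune genes Cd34 and Il2ra (10.5%) were in early-only bins, and 5 (26.3%) in kept bins. Cd34 and Il2ra had no H3K36me3 over the body in c34 or GV. In the whole blood list body H3K36me3 was called in 6 of 19 genes in c34 and 6 in GV. Il2ra, an interleukin receptor gene, had H3K4me3 over 51.6% of the body in c34 and 90.1% in GV.

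**Figure D5:**
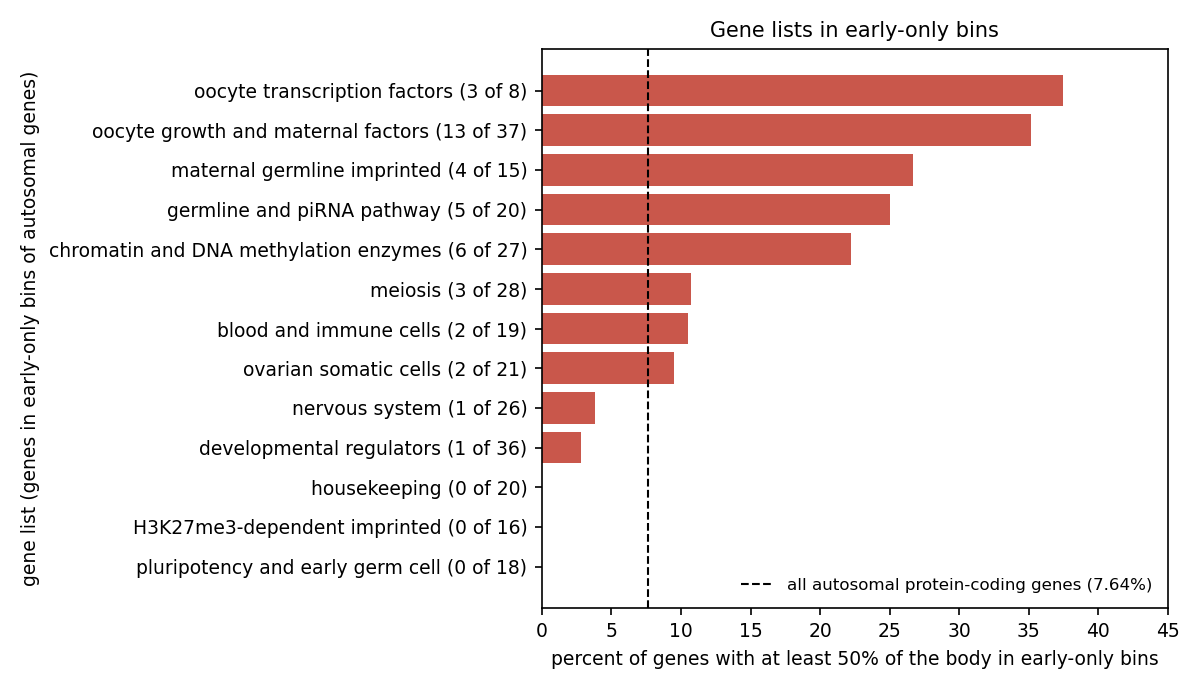
Percent of autosomal genes of 13 lists with at least 50% of the body in early-only bins (bars, from 0), with the value for all protein-coding genes (7.64%) as a dashed line. Oocyte transcription factors (37.5%) and oocyte growth and maternal factors (35.1%) are highest, and 3 lists have none.

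Gene families in clusters were also found in the regions, where neighbouring members share a region and are not separate cases. Their shares are to be read against the 7.64% of all genes that lay in early-only bins, and their H3K36me3 counts against the 61.6% (c34) and 59.3% (GV) of all genes with body H3K36me3. For promoter H3K4me3 the shares of all genes with a window were 63.8% (c34) and 71.0% (GV). Neither mark was counted for family members outside the regions, so a family trait cannot be told from a trait of early-only bins. Beta-defensins, small antimicrobial peptides, had 19 of 42 genes (45.2%) in 6 regions on chromosomes 2 and 8. Body H3K36me3 was called in 8 of the 19 in c34 and 6 in GV, below the shares of all genes. Defb14 had none in either late stage and H3K4me3 over 30.7% of the body in GV, Defb1 had 100% H3K36me3 in both, and Defb39 had neither mark in either.

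Core histone genes had 10 of 58 (17.2%), all in 3 regions of chromosome 13. None had H3K36me3 in c34 or GV, and all 9 with a promoter window had H3K4me3 in c34 and GV. H2ac12 and H2bc12, neighbours in the region chr13:22020001-22080000, had 100% of the body under H3K4me3 in c13, E18.5, c34 and GV, and H2bc4 had 51.7%, 21.8%, 100% and 100%. The histone genes differed in this from the 13 oocyte genes above, which had H3K36me3 over the body in c34 in every case.

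Olfactory receptor genes had 159 of 1104 (14.4%) in 38 regions, with body H3K36me3 in 37 of the 159 in c34 and 52 in GV, also below all genes. Of the 135 with a promoter window, 5 had H3K4me3 in c34 and 33 in GV. Olfr687 had H3K36me3 of 0% in c34 and 33.8% in GV, and H3K4me3 of 0% and 43.1%. Olfr869 and Olfr722 had neither mark in either late stage.

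Vomeronasal type 1 receptors had 35 of 230 genes (15.2%) in 14 regions. Body H3K36me3 was called in 11 of the 35 in each late stage, and no promoter of 31 was called in c34 and 7 in GV. Vmn1r235 had H3K36me3 of 100% in c34 and 0% in GV, with H3K4me3 of 0% and 100%. Vmn1r4 and Vmn1r5 had no H3K36me3 in either.

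Prame-like genes, a rodent-expanded family with oocyte members, had 7 of 49 (14.3%) in 2 regions of chromosome 4, and 5 had body H3K36me3 in each late stage. Pramel13, Oog4 and Pramel5 had 100% in c34 and GV. Nlrp genes had 3 of 18 (16.7%), which are those described above. Genes with symbols starting Ccl, Cxcl or Il, a pattern that also takes receptors, had 14 of 115 (12.2%). The interleukin receptor genes Il1r1 and Il1r2 had 100% H3K36me3 in both late stages, and Il23r had 0% in c34 and 53.8% in GV. No Hox gene of 39, T-box gene of 15, taste or trace amine receptor of 50 or Obox gene of 6 lay in early-only bins.

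The longest genes in each late state gave the states names. Bins with H3K36me3 in both c34 and GV held the longest stretches of Dlgap2 (657.7 kb), Ptprn2 (602.5 kb), Zfhx3 (602.3 kb), Ptprm (483.2 kb) and Chrm3 (434.5 kb). Body H3K36me3 of these 5 genes was 89.9% to 100% in c34 and 86.1% to 100% in GV. Zfhx3, a transcription factor gene with many zinc fingers, had 100% in c13, 0% at E18.5 and 100% in both late stages. Chrm3, a muscarinic acetylcholine receptor gene, had 25.6%, 64.8%, 100% and 99.8%.

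Bins with H3K4me3 over at least 5 kb and no H3K36me3 in both stages were fewer, 882. Entpd1, which encodes an ATP-hydrolysing surface enzyme, had 47.6 kb in them, and Gm52229 30.0 kb. Il2ra, Inhba and Kitl had 20.0 kb each. Entpd1 had body H3K4me3 of 16.0% in c13, 3.59% at E18.5, 36.9% in the c34 list and 42.0% in GV, and Gm52229 0%, 0%, 17.9% and 94.8%. Entpd1 also had H3K36me3 over 55.4% of its body in c34 and 63.1% in GV.

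Bins without H3K36me3 and without any H3K4me3 in both stages numbered 2134. Catsperb, a sperm calcium channel gene, had 140.0 kb in them, Kctd8 120.7 kb, Zfp978 110.0 kb, Nxph1 89.6 kb and Tmem196 70.0 kb. Catsperb had no H3K36me3 in c34 or GV, 20.8% in c13 and 31.6% at E18.5. The 10 kb around its start had no H3K4me3 in c13, E18.5 or c34 and 100% in GV. Nxph1, a neurexin ligand gene, had H3K36me3 of 27% in c34 and 0% in GV, and H3K4me3 over 6.98% and 53.9% of its body, so the gene as a whole was not free of marks.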

How the data were processed

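CATCH-seq libraries (35 in all) were described by the labels, and the analysis used the 13 peak lists deposited by the authors, whose values are in an other unit than counts: the start and end of each peak, without a score. Per the file headers and values, positions lie on a 1 kb grid for H3K4me3 and a 10 kb grid for H3K27me3 and H3K36me3. Per the submitters' processing notes, the peak callers MACS2 2.1.1 and SICER 0.0.41, the aligner Bowtie2 2.3.4.1, the trimmers cutadapt 1.9.1 and Trim Galore 0.4.1, and deepTools 3.5.0, Picard 2.18.23, bedtools 2.29.2 and SAMtools 1.7 were used, on mm10 and GRCm38.p3. The caller of each list, its threshold, and whether input was subtracted or libraries were pooled: not given in the sources used here. The depth of reads is also unknown. Input libraries were not used here.

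Lists were placed on 10 kb bins (1 kb steps for H3K4me3) between the first and last bin reached by any list on each of 19 autosomes. Cover is the percent of length under peaks. Genes are those of the RefSeq table of GRCm38.p6, which shares its primary assembly with the build of the peaks, and promoter windows exist for 16456 of 20661 protein-coding genes. The outermost window of a gene was used. No genome sequence was used.

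No test was made. The regions, the 13 gene lists (293 entries) and the 30 families were chosen with earlier results of these data known. Of the list entries, Bmp15 and Gata1 are not autosomal. Genes were named by rule: at most 8 members per list by symbol, genes of the 10 longest regions, 5 genes per late state by length, and 3 genes per family with a share at least 1.5 times, or at most 50% of, that of all genes. The oocyte genes beyond the first 8, and single genes picked out as exceptions, were named after their values were seen. A gene that met the rule is not reported here. Set arithmetic was tested on simulated data, with 0 wrong bins and 0 of 200 genes wrong. Alternatives changed the bins, peaks, H3K4me3 measure, gene overlap and chromosomes; the split by gene content was added after seeing the data. Python 3.11.15, numpy 2.4.6, pandas 2.3.3 and matplotlib 3.10.9 were used.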

Additional observations from a re-analysis of the deposited data

How the results depend on the processing

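Values shifted under several alternatives. No alternative turned the order of early-only and kept bins in late H3K36me3 or H3K4me3 where both were computed. Leaving out bins next to a late H3K27me3 peak gave H3K36me3 of 58.2% in c34 and 60.9% in GV, H3K4me3 of 17.4% and 31.7%, and c13 H3K27me3 of 54.2%. Leaving out c7 and E18.5 peaks of 1 Mb or more gave 53.0%, 55.5%, 18.3%, 34.9% and 51.9%. Requiring H3K27me3 in c13 left 10729 bins, with 76.2%, 75.3%, 26.4%, 36.4% and, by construction, 100%. Counting bins with at least 1 kb of H3K4me3 gave 37.6% in c34 and 50.6% in GV, and keeping H3K4me3 peaks of at least 5 kb gave 16.6% and 33.1%. Any overlap in place of 50% of the body gave 2381 genes. Non-genic bins, an alternative chosen after seeing the data, had H3K36me3 of 43.9% and 47.4% and H3K4me3 of 17.9% and 40.2%. Leaving out 1 chromosome at a time gave 55.2% to 57.4% for H3K36me3 in c34, 57.8% to 59.6% in GV, and 54.6% to 57.5% for c13 H3K27me3. Joining only regions of at least 2 bins left 18610 bins. The cause of these shifts was not tested. No paired analysis was possible because each stage and mark has 1 peak list. Depth is unknown, so an uncalled bin may hold signal below the threshold.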

Other observations

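Genes that do not code for protein were also present in early-only bins, with at least 50% of the gene there. They included 1046 of 12408 long non-coding RNA genes (8.43%), 92 of 1136 miRNA genes (8.10%) and 850 of 8884 pseudogenes (9.57%). These shares lie near the 7.93% of bins that are early-only.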
